A study of Mus musculus with 8 samples.

Results

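Genes for secreted proteins of the airway and for pulmonary surfactant proteins were read out in a pair of fetal mouse vessels, the ductus arteriosus and the aorta. The 9 genes are Cxcl15, Scgb1a1, Scgb3a1, Scgb3a2, Bpifa1, Sftpa1, Sftpb, Sftpc and Sftpd. All 12 probe sets annotated to exactly 1 of them were taken, out of 34945 probe sets with a single gene symbol, and the 9 genes were among 18193 genes measured. They were picked because Cxcl15 and a pair of secretoglobins were high in the ductus, so the difference between the vessels is given for them as a description, without a test. The study compared 4 Affymetrix arrays of ductus arteriosus with 4 of aortic tissue, each array from a pool of vessel segments of up to 10 pups of a litter taken on day 19 of gestation. All mice carried the strain label CD88 and were described as CD88 wild type, and no treatment was given. The replicates were labelled biological. Each pool therefore averages the cells of many dissected segments, and such a segment can hold adventitia and adjoining tissue besides the vessel wall.

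The ductus arteriosus joins the pulmonary artery to the descending aorta before birth and lies close to the trachea, the left main bronchus and the lung. Secretoglobins are small secreted proteins of club and goblet cells, which line the airways, and surfactant proteins are made by alveolar type 2 cells, with some also made by airway cells. Cxcl15 is a chemokine known from lung and other mucosal epithelium. SP-B and SP-C, encoded by Sftpb and Sftpc, are hydrophobic peptides of the surfactant film, and SP-A and SP-D, encoded by Sftpa1 and Sftpd, are collectins, lectins that bind microbes in the air space.

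Values are log2 signals, in which a step of 1 is a doubling, and were given by the submitters after normalization. No call of presence or absence was used, and the first quartile of each array (2.74 to 2.86 over the 8 arrays) served as a mark of low signal. Of the genes that define a vessel wall, Acta2, the main vascular actin, lay between 11.89 and 12.41 and Eln, elastin, between 12.16 and 12.42. The contractile genes Myh11 (log2 1.00, limma adjusted p = 0.00623) and Cnn1 (1.41, adjusted p = 0.0273; 6.76 to 9.395 over the arrays) were called ductus-high, and the endothelial gene Pecam1 (-0.63, adjusted p = 0.0241) aorta-high. Of all 18193 genes, 702 passed limma's test at an adjusted p under 0.05 (3.86%), 328 of them higher in the ductus (1.8%) and 374 higher in the aorta (2.06%). Every ductus array lay above every aorta array in 5.23% of all genes. The number called was 443 without aorta replicate 2 and 454 without ductus replicate 4.

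Promoter windows from RefSeq (GRCm38.p6) were scanned for 5 of the 9 genes, running from 250 bases before the annotated start to 50 bases from it on. Scgb1a1, Scgb3a2, Sftpc and Sftpd were not scanned. The windows of a pair of genes that separated the vessels, Cxcl15 (chr5:90794284-90794583) and Scgb3a1 (chr11:49663345-49663644), and of a pair of surfactant genes that did not, Sftpa1 (chr14:41131538-41131837) and Sftpb (chr6:72304360-72304659), are shown, all on the plus strand and read 5′ to 3′. Capitals mark matches, on either strand, to CTCAAG (the core bound by NKX2-1, the lung and thyroid homeobox factor), TGTTTNC (a forkhead core) and TATAAA (the TATA box).
Cxcl15: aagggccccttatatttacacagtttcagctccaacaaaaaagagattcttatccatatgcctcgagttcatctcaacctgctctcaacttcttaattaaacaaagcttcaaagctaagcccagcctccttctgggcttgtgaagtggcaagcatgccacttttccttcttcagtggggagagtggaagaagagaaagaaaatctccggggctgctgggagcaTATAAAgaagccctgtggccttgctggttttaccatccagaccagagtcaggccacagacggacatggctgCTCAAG
Scgb3a1: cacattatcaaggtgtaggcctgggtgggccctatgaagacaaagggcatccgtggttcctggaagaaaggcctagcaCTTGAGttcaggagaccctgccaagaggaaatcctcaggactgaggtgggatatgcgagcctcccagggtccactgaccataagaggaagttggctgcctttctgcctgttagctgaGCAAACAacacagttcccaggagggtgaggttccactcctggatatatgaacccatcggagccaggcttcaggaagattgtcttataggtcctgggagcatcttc
Sftpa1: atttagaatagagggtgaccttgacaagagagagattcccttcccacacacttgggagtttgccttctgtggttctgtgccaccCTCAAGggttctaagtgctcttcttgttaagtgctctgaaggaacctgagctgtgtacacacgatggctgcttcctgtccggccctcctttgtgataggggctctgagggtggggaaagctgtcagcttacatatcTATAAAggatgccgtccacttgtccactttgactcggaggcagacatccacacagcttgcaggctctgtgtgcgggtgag
Sftpb: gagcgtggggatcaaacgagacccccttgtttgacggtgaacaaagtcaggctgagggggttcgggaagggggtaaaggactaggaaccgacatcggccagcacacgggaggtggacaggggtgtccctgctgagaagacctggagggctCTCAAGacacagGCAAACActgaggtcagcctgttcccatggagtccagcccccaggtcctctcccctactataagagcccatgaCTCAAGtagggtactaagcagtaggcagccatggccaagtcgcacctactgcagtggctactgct

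CTCAAG was found in all 5 windows scanned, the one of Bpifa1 included, against 15.9% of 32851 windows of the same length. In Cxcl15 it occupied the last bases of the window, 45 to 50 from the start site counted as 1, and in Scgb3a1 it lay on the minus strand, 172 to 167 bases before the start. Sftpb held it at 100 to 95 and at 15 to 10 bases before the start, with a forkhead core on the minus strand at 88 to 82 bases before it. TGTTTNC was present in 2 of the 5 windows (20.5% of all windows) and TATAAA in 3 of the 5 (13.6% of all windows), at 27 to 22 bases before the start in Cxcl15 and 30 to 25 before it in Sftpa1. No 2 matches overlapped in the windows shown. A match describes these letters and is no evidence of binding.

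The genes fell into a set that separated the vessels and a set that did not. Cxcl15, Scgb1a1, Scgb3a1 and Scgb3a2 were higher on every ductus array than on any aorta array, as were 5.23% of all genes. The values of Bpifa1, Sftpa1, Sftpd, Sftpb and Sftpc overlapped between the vessels. All 9 had a mean difference above 0, from log2 0.17 for Bpifa1 to log2 5.15 for Cxcl15, with a median of 1.46 against -0.03 over all genes. Of the 9, Cxcl15, Scgb1a1 and Scgb3a2 passed the call rule of the all-gene test, beside the background of 1.8% of genes called higher in the ductus. Of their 12 probe sets, 4 passed the fit over all probe sets, where 1.39% were called higher in the ductus. Since the genes were picked on this contrast, nothing is read from these counts. In pooled tissue, more cells of a type and more RNA per cell cannot be told apart.

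**Figure D1:**
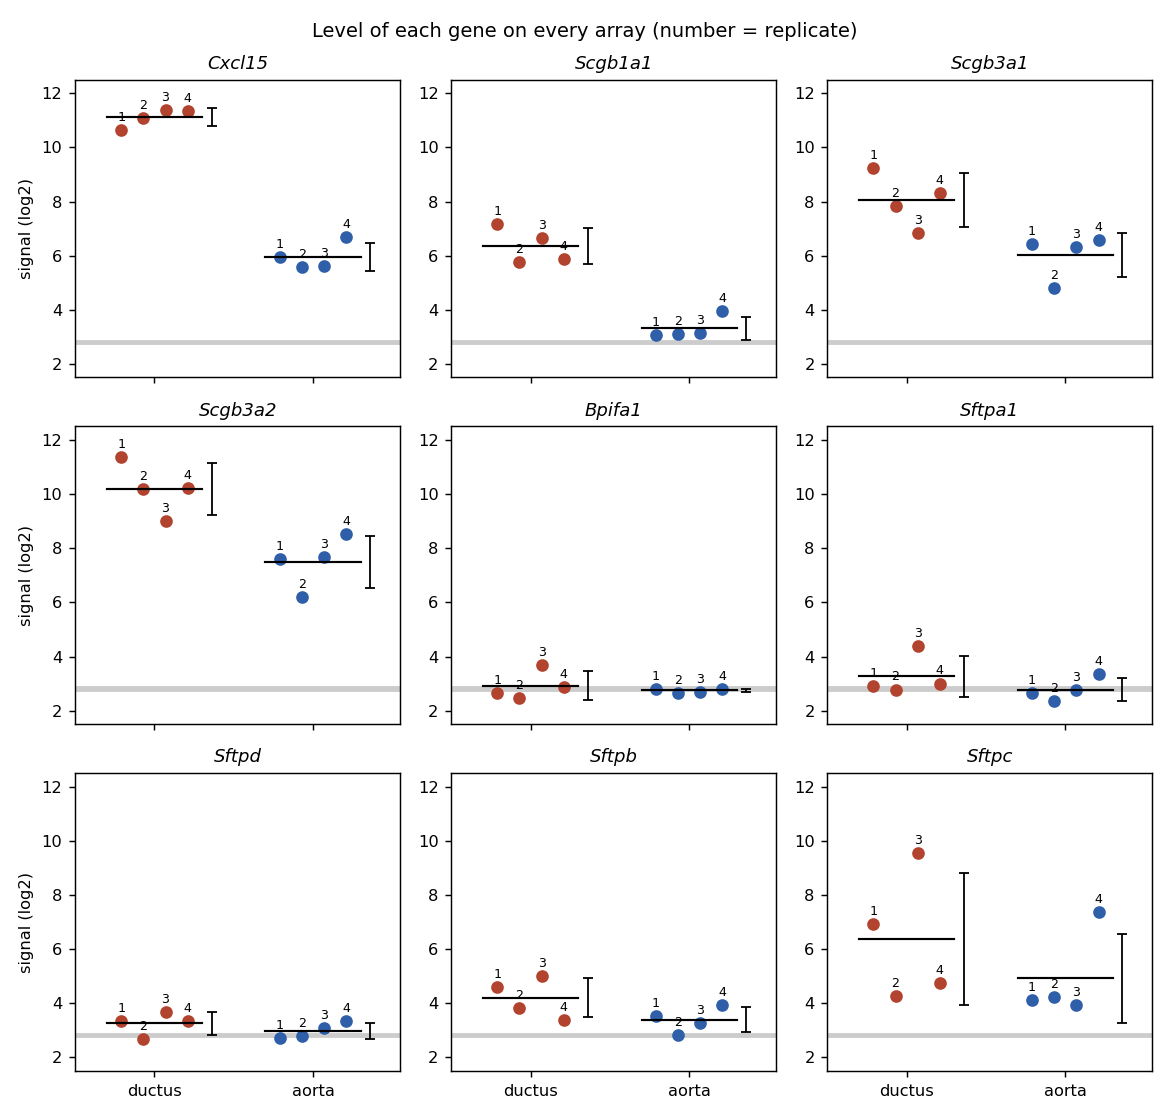
Log2 signal of the 9 genes on each array (probe set with the highest mean of its gene), ductus in red and aorta in blue, with the replicate number above each point, the mean as a line, the SD over 4 arrays as a bar and the range of the arrays' first quartiles as a grey band. Cxcl15 and the secretoglobins, 4 genes, have every ductus array above every aorta array, as do 5.23% of all genes. Sftpc spreads from 4.25 to 9.56 within the ductus.

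Cxcl15 (lungkine), a chemokine that attracts neutrophils, lies on chromosome 5 (90794534 to 90803067, GRCm38.p6) and had 2 probe sets. The brighter one (1456428_at) read 10.65, 11.08, 11.37 and 11.34 in ductus replicates 1 to 4 and 5.95, 5.58, 5.63 and 6.70 in aorta replicates 1 to 4. The ductus arrays were close together (11.11 ± 0.335, SD, n = 4), and the aorta values were lower and somewhat wider (5.96 ± 0.517, n = 4). The other probe set (1421404_at) read 8.93, 8.48, 8.94 and 9.13 in the ductus and 3.75, 3.55, 3.65 and 4.69 in the aorta. Both probe sets gave nearly the same separation, log2 5.15 ± 0.257 and 4.96 ± 0.250 (difference ± SE), or 35.4-fold and 31.1-fold. In both, aorta replicate 4 was the highest aorta array, and its value remained below every ductus value by more than log2 3.

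Scgb1a1 encodes the club cell secretory protein, the most abundant secretoglobin of conducting airways, and lies on chromosome 19 (9083642 to 9087956). Its ductus arrays read 7.18, 5.75, 6.66 and 5.87 and its aorta arrays 3.05, 3.09, 3.13 and 3.96. The aorta values of replicates 1 to 3 were just above the first quartile. Within the ductus, replicates 1 and 3 were above replicates 2 and 4. The difference was log2 3.05 ± 0.327, or 8.30-fold.

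Scgb3a1 (chromosome 11, 49663595 to 49665118) and Scgb3a2 (chromosome 18) encode a related pair of secretoglobins of the trachea and bronchi, the latter induced by NKX2-1 early in airway development. Scgb3a1 read 9.22, 7.83, 6.84 and 8.30 in the ductus and 6.42, 4.80, 6.33 and 6.57 in the aorta. Its lowest ductus value, on replicate 3, was within log2 0.3 of the highest aorta value, on replicate 4. Scgb3a2 read 11.37, 10.19, 8.99 and 10.21 in the ductus and 7.60, 6.20, 7.68 and 8.52 in the aorta. Both genes were highest on ductus replicate 1 and aorta replicate 4 and lowest on ductus replicate 3 and aorta replicate 2. Scgb3a2 averaged 7.499 ± 0.959 (n = 4) in the aorta, well above the first quartile there too, against 10.19 ± 0.971 in the ductus.

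The differences of this pair were log2 2.02 ± 0.511 for Scgb3a1, or 4.05-fold, and log2 2.69 ± 0.541 for Scgb3a2, or 6.47-fold. Scgb3a2 fell below the call rule when any of 6 arrays was left out (aorta replicates 1, 2 and 3, ductus replicates 1, 2 and 4), and Scgb3a1 passed it without ductus replicate 3. Cxcl15 and Scgb1a1 passed it in each of these fits. Since the genes were picked on this contrast, nothing is read from which fits they passed. By the standard errors alone, the secretoglobins had wider error relative to their difference than Cxcl15 (log2 5.15 ± 0.257).

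**Figure D2:**
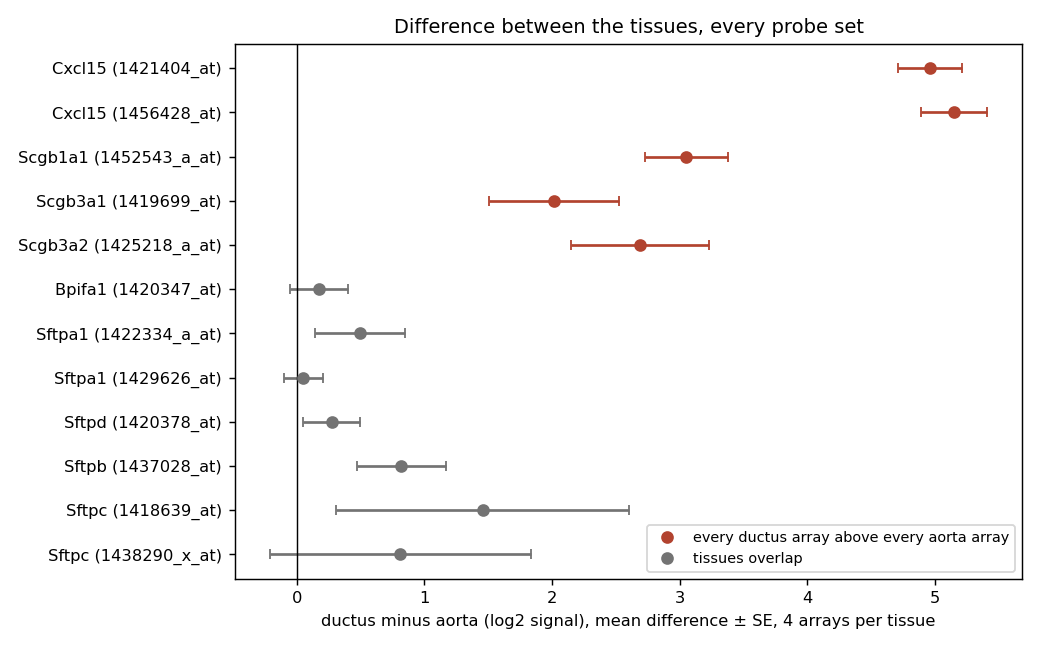
Mean difference, ductus minus aorta, on the log2 scale with the model's standard error for each of the 12 probe sets (4 arrays per vessel). Red points, the Cxcl15 and secretoglobin probe sets, had every ductus array above every aorta array, and grey points overlapped, with the widest errors for Sftpc.

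Bpifa1 (SPLUNC1), a secreted lipid-binding protein of the nose and upper airways, stayed low. It read 2.65, 2.47, 3.68 and 2.88 in the ductus and 2.81, 2.67, 2.70 and 2.80 in the aorta. All 4 aorta arrays and 2 ductus arrays lay below their own first quartile, and ductus replicate 3 alone stood out. The difference, log2 0.17 ± 0.229, was -0.08 without that array.

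The collectins Sftpa1 and Sftpd lie on chromosome 14 with 35838 bases between them. The brighter Sftpa1 probe set (1422334_a_at) read 2.91, 2.78, 4.41 and 3.00 in the ductus and 2.66, 2.34, 2.77 and 3.34 in the aorta, so ductus replicate 3 lay apart from an otherwise low gene. The second probe set (1429626_at) ranged from 2.31 to 2.83 in the ductus and from 2.17 to 2.63 in the aorta, low on all arrays, with its highest value of each vessel on the same arrays as the first. Sftpd read 3.33, 2.67, 3.68 and 3.33 in the ductus and 2.71, 2.78, 3.08 and 3.36 in the aorta. Differences were log2 0.49 ± 0.351 for Sftpa1 and 0.27 ± 0.222 for Sftpd, both within the spread between arrays of a vessel.

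Sftpb (chromosome 6, 72304610 to 72314373), whose product SP-B is required for a working surfactant film, read 4.602, 3.833, 4.996 and 3.394 in the ductus and 3.517, 2.844, 3.252 and 3.934 in the aorta. Ductus replicate 4 was below aorta replicates 1 and 4, so the vessels overlapped, with a difference of log2 0.82 ± 0.347.

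Sftpc, the defining gene of alveolar type 2 cells (chromosome 14, 70520941 to 70524081), varied more between pools of 1 vessel than between the vessels. The brighter probe set (1418639_at) read 6.93, 4.25, 9.56 and 4.76 in the ductus and 4.13, 4.25, 3.92 and 7.38 in the aorta. Ductus replicates 1 and 3 and aorta replicate 4 were high, and the other 5 arrays lay between 3.92 and 4.76. The range within the ductus was 39.7-fold and within the aorta 11.0-fold, both larger than the mean difference of 2.74-fold (log2 1.46 ± 1.15). The second probe set (1438290_x_at, a class that can bind related transcripts) showed the same 3 arrays high, at 5.39, 8.12 and 6.58, and the others between 3.52 and 3.77.

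The arrays on which these genes were high differed between the surfactant genes and the Scgb3a pair. All 4 surfactant genes were highest on ductus replicate 3 in the ductus and on aorta replicate 4 in the aorta. On ductus replicate 3, Sftpc was log2 3.19 above its ductus mean, Sftpa1 1.13, Sftpb 0.79 and Sftpd 0.43 above theirs, whereas Scgb3a1 was lower than its mean by a deviation of -1.21 and Scgb3a2 by -1.20. Cxcl15 was 0.26 and Scgb1a1 0.30 above their ductus means there. On aorta replicate 4, by contrast, Cxcl15, the secretoglobins and the surfactant genes were each above their aorta mean, by log2 0.37 (Sftpd) to 2.46 (Sftpc). Over the 8 arrays Scgb3a1 and Scgb3a2 had a Pearson r of 0.98 and Sftpc and Sftpa1 one of 0.89, while Sftpc and Scgb3a2 had 0.32 (Spearman rho 0.548). Pairs of a surfactant gene and a secretoglobin ran from 0.17 (Sftpa1 and Scgb3a1) to 0.78 (Sftpb and Scgb1a1). These are descriptions over arrays that share their pools and normalization, and the vessel difference itself adds to the first value.

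**Figure D3:**
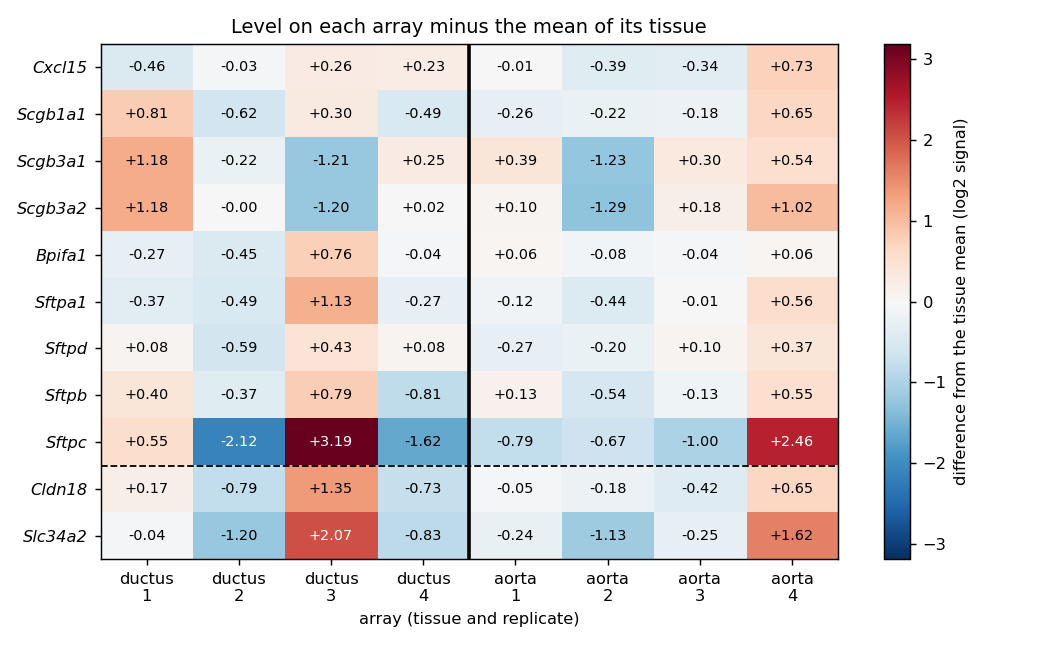
Level of each gene on each array minus its mean in that vessel (log2), for the 9 genes and, below the dashed line, Cldn18 and Slc34a2. Ductus replicate 3 is high for Sftpc (3.19) and low for Scgb3a1 (-1.21) and Scgb3a2 (-1.20), and aorta replicate 4 is above the mean in every row.

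Without ductus replicate 3 and aorta replicate 4, a choice made after seeing the data, the differences were log2 5.30 ± 0.203 for Cxcl15, 3.17 ± 0.352 for Scgb1a1, 2.60 ± 0.500 for Scgb3a1 and 3.43 ± 0.466 for Scgb3a2. Aorta replicate 4 was the highest aorta array of all 4 genes and ductus replicate 3 the lowest ductus array of the Scgb3a pair, so leaving them out could only widen the gaps of that pair. Sftpc itself then differed by log2 1.21 ± 0.616 and Bpifa1 by -0.06 ± 0.143.

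The genes with the most similar pattern were sought among 15745 named autosomal genes by Pearson r over the 8 arrays. For Sftpc they were Cldn18 (r = 0.979), a claudin of alveolar epithelium, Pcbd1 (0.968), Slc34a2 (0.961), the phosphate transporter of alveolar type 2 cells, Myl1 (0.953), a myosin light chain of skeletal muscle, and Akr1c6 (0.952). Slc34a2 read 6.06, 4.90, 8.16 and 5.27 in the ductus and 5.004, 4.11, 4.985 and 6.86 in the aorta, high on the arrays that were high in Sftpc. Cldn18 read 3.77, 2.81, 4.95 and 2.87 in the ductus and 2.94, 2.82, 2.58 and 3.65 in the aorta. When any 1 array was left out, Cldn18 ranked between 1 and 16 and Slc34a2 between 2 and 159, the last without ductus replicate 3. The likeness of Slc34a2 rests in large part on that array.

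Skeletal muscle genes were among the nearest of Sftpa1 and Bpifa1. Both members stood out on ductus replicate 3, so likeness to them fixed that these genes were high on that array. Ttn (titin), near Sftpa1 at r = 0.970, was at 6.65 there and between 4.02 and 4.65 on the other 7 arrays. Ryr1 and Myh8, a calcium release channel and a myosin of skeletal muscle, were near Bpifa1 (0.957 and 0.956), at 6.60 and 6.63 on ductus replicate 3 and at most 3.82 elsewhere. Their part in the surfactant and Bpifa1 values was not tested.

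Cxcl15 was most like Dcc (r = 0.997), the netrin receptor, Bmper (0.996), a BMP-binding protein of vascular cells, and the transcription factor Bcl11a (0.994), followed by Fhod3 and Hoxb5os (0.991 each). All 5 passed limma's test between the vessels (adjusted p = 2.40e-07 to 0.000388), each with every ductus array above every aorta array. Likeness to Cxcl15, whose pattern is mostly its vessel difference, fixed this outcome. Bmper read 10.45, 10.22, 10.58 and 10.59 in the ductus and 7.71, 7.58, 7.46 and 7.94 in the aorta. Scgb3a2 was most like Rsbn1 (0.990) and Smarca5 (0.988), a chromatin remodelling ATPase. Rsbn1 differed by log2 0.29 between the vessels (adjusted p = 0.184, limma), and its arrays stood in the same order as those of Scgb3a2 (Spearman rho 1.0), the vessels apart in both.

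Other markers of lung and airway epithelium, none of them among the 9, were read from 6 lists. Of 100 measured (108 listed), 3 were called ductus-high and 4 aorta-high, or 3.00% and 4.00% against 1.8% and 2.06% of all genes. Their median difference was log2 0.02, and the medians of the single lists lay between -0.17 and 0.27. By the measure used above for the 9 genes, 6.0% of the 100 had every ductus array above every aorta array (5.23% of all genes) and 9.0% the reverse (6.06%). Genes of alveolar type 2 cells and surfactant handling had 0 of 18 called by limma (1 at an unadjusted p under 0.05; median log2 0.08). Abca3, the lipid transporter of lamellar bodies, differed by -0.11 ± 0.235 (adjusted p = 0.870), and Napsa, a protease that processes SP-B, by 0.33 ± 0.206 (adjusted p = 0.499).

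Of 11 alveolar type 1 genes, 2 were called ductus-high and 1 aorta-high, and these are not restricted to that cell type. At an unadjusted limma p under 0.05, 8 of the 11 differed (72.7%, against 16.1% of all genes), in both directions. Akap5, a scaffold for protein kinase A, read 8.46, 8.04, 8.88 and 8.71 in the ductus and 5.63, 4.97, 5.35 and 5.88 in the aorta (8.36-fold, limma adjusted p = 0.000105). Igfbp2, an insulin-like growth factor binding protein, exceeded its aorta level 6.15-fold (adjusted p = 0.000171). Podoplanin, Pdpn, went the other way, with the aorta ahead 2.20-fold (adjusted p = 0.0135). Ager, the most specific gene of the list, differed by log2 0.13 ± 0.228 (adjusted p = 0.847), and its highest array was ductus replicate 3 (6.07 against 5.03 to 5.50 on the others).

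Club and mucous cell genes had 1 of 23 called ductus-high and 3 aorta-high by limma (7, or 30.4%, at an unadjusted p under 0.05). Their median difference was log2 0.27, towards the ductus. Single genes ran from log2 -1.60 for Fmo2 to 1.06 for Sec14l3, named here outside the rule for named genes. Sec14l3 overlapped between the vessels (adjusted p = 0.308). The aorta exceeded the ductus 3.04-fold in Fmo2, a flavin monooxygenase of the lung (adjusted p = 0.00118). In Creb3l1, a factor of secretory cells, the excess was 1.91-fold (adjusted p = 0.0147, and 0.0517 without aorta replicate 2), and in Clca1, a mucous cell protein, 1.71-fold (adjusted p = 0.0387). Clca1 did not pass without any 1 of 7 arrays, aorta replicate 2 being the exception, with adjusted p up to 0.0967. As the mean over all probe sets Clca1 differed by log2 -0.33 (adjusted p = 0.236). It also missed the threshold with each array centred on its median (0.0550) and with array weights (0.0535). Its ductus mean of 2.43 lay below every first quartile. Chad, a matrix protein also made by cartilage, had a 1.58-fold ductus excess (adjusted p = 0.0361) that did not pass without aorta replicate 1, 2 or 4 or ductus replicate 1, 3 or 4, with adjusted p up to 0.107. The club cell enzymes Cyp2f2 and Cbr2 overlapped between the vessels. Cyp2f2 read 4.22, 2.38, 3.58 and 3.20 in the ductus and 2.52, 2.81, 2.36 and 3.00 in the aorta (limma adjusted p = 0.370). Cbr2 differed by log2 0.65 ± 0.251 (adjusted p = 0.238). Aldh1a1, another enzyme of the list, overlapped too but went the other way, by log2 -0.78 ± 0.289 (adjusted p = 0.214).

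Limma called 0 of 18 ciliated cell genes (2, or 11.1%, at an unadjusted p under 0.05), 0 of 8 basal cell genes (1) and 0 of 22 general epithelial genes (6, or 27.3%). Over all genes that share was 16.1%. Foxj1, the master factor of motile cilia, lay between 2.39 and 2.78. The dynein light chain Dynlrb2 read 4.85, 4.00, 3.62 and 3.85 in the ductus and 2.64, 2.51, 2.56 and 4.12 in the aorta, which missed the threshold with all arrays (adjusted p = 0.176) and passed without aorta replicate 4 (log2 1.51, adjusted p = 0.0227). Ak7, an adenylate kinase of cilia, had every ductus array above every aorta array, with a difference of log2 1.41 ± 0.412 (adjusted p = 0.106), which passed only when ductus replicate 3 was left out (0.0474), among the alternatives run. The basal keratin Krt14 had a difference of -1.50 ± 0.369 (adjusted p = 0.0603), and passed under 5 alternatives: without aorta replicate 3 (0.0180), without low genes (0.0490), with its most variable probe set (-2.09, 0.0249), as the mean over probe sets (0.0154) and with the trended, robust prior (0.0357). The epithelial genes Cdh1 (log2 0.21, adjusted p = 0.734) and Epcam (-0.06, adjusted p = 0.921) read 5.19 to 6.15 and 3.83 to 4.71 over the arrays, around the array medians of 4.36 to 4.42 for Epcam. Esrp1 differed by log2 0.69 (adjusted p = 0.135), with every ductus array above every aorta array, as in 5.23% of all genes. Cldn7 overlapped (0.47, adjusted p = 0.229). The largest differences of the general epithelial list were Prr15l (-0.77, adjusted p = 0.0816, and 0.0441 without aorta replicate 3) and Ehf (0.69, adjusted p = 0.446). The list median was log2 -0.09.

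**Figure D4:**
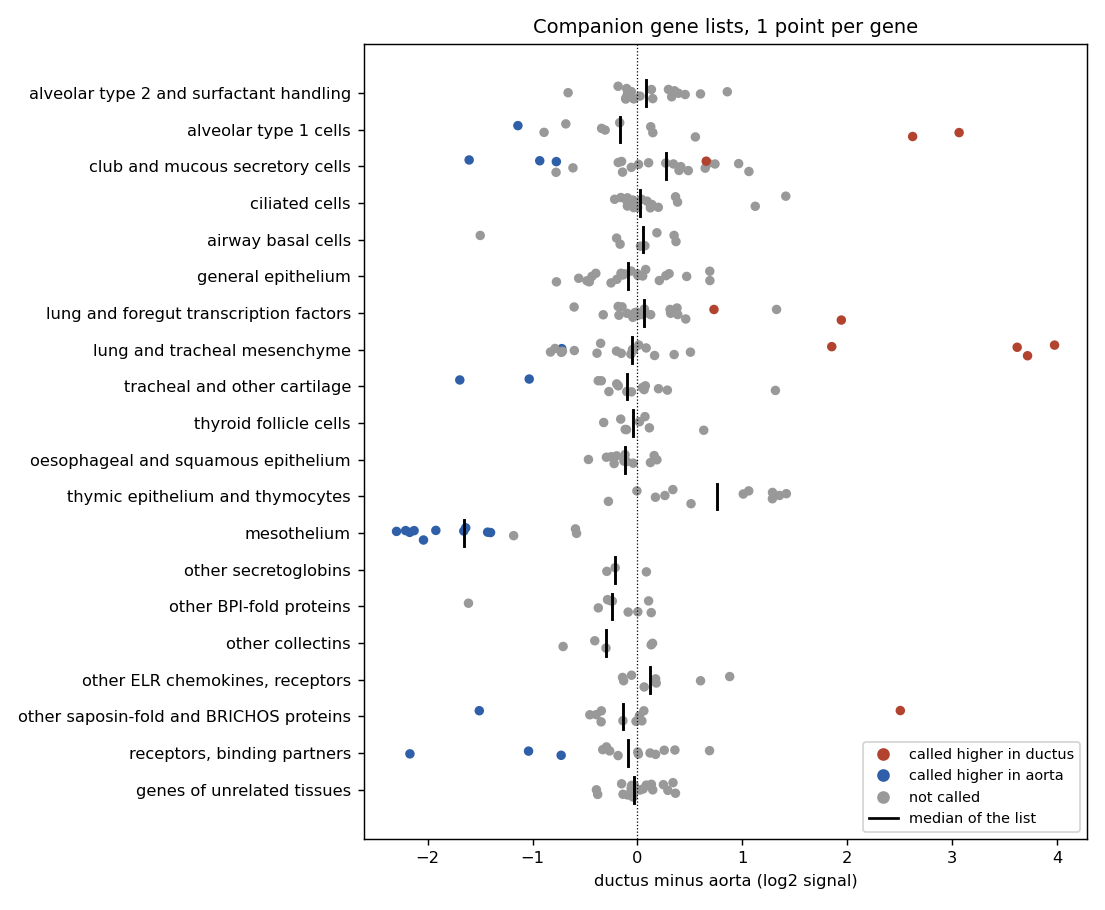
Difference, ductus minus aorta (log2), of each gene of the 20 companion lists, with called genes in red (higher in the ductus) or blue (higher in the aorta) and the list median as a black line. The 6 lists of lung and airway epithelium at the top centre near 0, while the mesothelium list centres on -1.65.

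Among 23 transcription factors of lung and foregut, 2 were called ductus-high and 0 aorta-high. Sox9, of cartilage, neural crest and distal lung buds, exceeded its aorta level 3.84-fold (adjusted p = 0.000160), and Id2, an inhibitor of helix-loop-helix factors, did so 1.66-fold (adjusted p = 0.00191). The regulators of airway secretory genes, named here outside the rule for named genes, did not separate: Nkx2-1 was between 2.70 and 3.23 on all arrays, near the first quartile (adjusted p = 0.767), and Foxa1 and Foxa2 differed by log2 0.07 each (adjusted p = 0.944 and 0.924). Foxa1 was highest on ductus replicate 1 (3.94) and aorta replicate 4 (3.69), the arrays highest in the secretoglobins. Foxa2 was highest on ductus replicate 3 (3.45) and aorta replicate 2 (3.31), the arrays lowest in the Scgb3a pair, and Nkx2-1 on ductus replicate 2 (2.95) and aorta replicate 4 (3.23). In the list of lung and tracheal mesenchyme, 4 of 22 were called ductus-high and 1 aorta-high, with Foxf1, a factor of foregut mesenchyme, at 15.7-fold (adjusted p = 0.000105). As means over all probe sets, the differences of Foxf1 and Sox9 were log2 1.99 and 0.98, and both passed.

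Relatives of the secreted proteins were read from 5 lists. Limma called 0 of 3 other secretoglobins (0 at an unadjusted p under 0.05; 9 listed), 0 of 9 other BPI-fold proteins (0), 0 of 5 other collectins (1) and 0 of 8 ELR chemokines and receptors (1). The salivary protein Bpifa2 was at 7.83 on aorta replicate 2 and between 2.12 and 2.68 on the other 7 arrays. Among the ELR chemokines, the family of Cxcl15, Cxcl2 differed by log2 0.88 ± 0.342 (adjusted p = 0.238) and the platelet chemokine Ppbp by 0.60 ± 0.310 (adjusted p = 0.387). Cxcr2, the neutrophil receptor for this family, lay between 2.44 and 3.28 (adjusted p = 0.697). Of 11 other saposin-fold and BRICHOS proteins, the families of SP-B and SP-C, 1 was called ductus-high and 1 aorta-high. The first was Tnmd, tenomodulin of tendon, named here outside the rule after its values were seen, with 7.28, 7.08, 7.37 and 7.64 in the ductus and 3.82, 5.05, 5.66 and 4.82 in the aorta (5.67-fold, adjusted p = 0.00272). The second was the gastrokine Gkn3, with the aorta ahead 2.84-fold (adjusted p = 0.00291).

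Of 14 receptors and binding partners of these secreted proteins, 3 were called aorta-high and 0 ductus-high. Lrp2 and Cubn, the endocytic receptors megalin and cubilin that take up Scgb1a1 in the kidney, exceeded their ductus level 4.49-fold (adjusted p = 0.00464) and 2.05-fold (adjusted p = 0.0243). Tlr4, which binds SP-A, did so 1.66-fold (adjusted p = 0.0107). Lrp2 read 3.66, 3.39, 4.06 and 3.79 in the ductus and 6.66, 6.07, 4.96 and 5.88 in the aorta. Cubn did not pass without ductus replicate 1, 3 or 4 (adjusted p up to 0.0734), and neither Cubn (0.0805) nor Tlr4 (0.115) passed as the mean over its probe sets. Lrp2 passed so, with a difference of -1.27. Marco, a scavenger receptor that binds Scgb3a2, differed by log2 0.36 ± 0.299 (adjusted p = 0.633).

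Markers of neighbouring tissues gave the setting of these values. Of 13 mesothelial genes, 10 were called aorta-high and 0 ductus-high, with list means of 6.62 to 7.19 in the ductus and 7.88 to 9.31 in the aorta. Thymus genes had 0 of 12 called by limma (0 at an unadjusted p under 0.05) and a median difference of log2 0.76, the highest of the 20 companion lists, with list means of 4.05 to 6.54 in the ductus and 3.73 to 5.95 in the aorta. Their mean was highest on ductus replicate 1 and aorta replicate 4, as were Scgb1a1, Scgb3a1 and Scgb3a2. Cd8a, the T cell coreceptor, was at 9.47 and 9.03 there, and at 4.64 on ductus replicate 4. On ductus replicate 3, where the Scgb3a pair was lowest in the ductus, the thymus mean was 5.52, above ductus replicates 2 and 4. The lowest aorta array was replicate 3 for the thymus mean (3.73) and replicate 2 for that pair. Of the 6 epithelial lists, the club and mucous list also had its highest means on ductus replicate 1 (5.31) and aorta replicate 4 (5.08). So did the ciliated list (4.42 and 4.18) and the basal list (4.74 and 4.85). Both alveolar lists were instead highest on ductus replicate 3 in the ductus, and general epithelium on aorta replicate 1 in the aorta. Whether thymus RNA or airway epithelial RNA had a part in the secretoglobin values was not tested. Thyroid (0 of 8 called, 0 at an unadjusted p under 0.05), squamous epithelium (0 of 13, 1) and genes of unrelated tissues (0 of 22, 2) stayed near 0 in median difference (-0.04, -0.12 and -0.04). Of 15 cartilage genes, 0 were called ductus-high and 2 aorta-high.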

How the data were processed

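The deposited log2 values of 45101 probe sets on 8 arrays were used. The authors made them with Partek 6.6 and RMA, per the submitters' processing notes; no source read for this work states their order or settings. For extraction the labels name Trizol and the design text a Versagene kit. Control probe sets (64), unnamed ones (9160) and those with several genes (932) were left out. Probe sets were named from the platform annotation, 34741 of 34945 updated by gene ID. Each gene was taken as its probe set with the highest mean, without a low-value filter. Differences were fitted with limma 3.58.1 in R 4.3.3 (lmFit, eBayes, two-sided, Benjamini-Hochberg over 18193 genes) and, for single probe sets, over 34945 probe sets. On simulated arrays for this comparison (18193 genes, 200 changed), 81% of changes of log2 1 and 97% of those of log2 2 were recovered, with 8 false calls among 186. P-values reflect only how much the litter pools varied, and the number of arrays limits precision. The genes and the 20 companion lists were chosen with earlier results of these data known. Named from each list were up to 4 called genes with the smallest adjusted p or, where none was called, up to 2 with the largest difference, plus fixed cell type markers and the 5 most similar genes of each member; sex-linked genes and clone names were left out. Alternatives covered scaling, low values, probe set choice, prior, array weights, replicate block, threshold and leaving out each array.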

Additional observations from a re-analysis of the deposited data

Results flagged for a closer look

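Single arrays standing apart from the other 3 of their vessel were sought by the gap to the nearest array divided by the range of the group (against Dixon's critical value for 4 samples), in 136 groups of 4 arrays. It was exceeded in 17, and chance alone exceeds it in about 1 of 20 independent groups. These groups were not independent: they share arrays, and both Sftpc probe sets were counted. Ttn, Ryr1 and Myh8 had been taken for likeness to genes high on ductus replicate 3. The 17 are therefore not read against that rate. Aorta replicate 4 was high for Scgb1a1 (0.912), both Sftpc probe sets (0.905 and 0.920) and Dynlrb2 (0.922), and low for Id2 (0.899). Ductus replicate 3 was high for Sftpa1 (0.863), Ager (0.894), Ttn (0.879), Ryr1 (0.911) and Myh8 (0.898). Aorta replicate 2 was low for Scgb3a1 (0.867) and high for Bpifa2 (0.927). Pdpn (0.914) and Pecam1 (0.831) were high on aorta replicate 1 and Cubn on aorta replicate 3 (0.926), where Gkn3 was low (0.906), and Nkx2-1 was high on ductus replicate 2 (0.845).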

How the results depend on the processing

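The number of genes called over the whole table (702) ranged from 443 to 705 on leaving out 1 array, and was 388 with a 2-fold minimum and 378 without ductus replicate 3 and aorta replicate 4. The companion epithelial count (7) ranged from 5 to 9 on leaving out 1 array and was 4 with the 2-fold minimum. Of the 9 genes, 2 to 4 passed on leaving out 1 array, and 2 with the trended, robust prior; the difference ranged over all alternatives from 5.02 to 5.39 for Cxcl15, 2.26 to 3.43 for Scgb3a2 and 0.39 to 2.27 for Sftpc. Whether the same replicate number marks the same litter was not stated. Deviations of same-numbered arrays from their vessel means correlated at -0.227 to -0.068. By these deviations, 0 of 4 ductus arrays correlated best with their own number. With 4 arrays per vessel this cannot decide whether the numbers mark shared litters. With the replicate block, 403 genes, 3 companion genes and 2 of the 9 genes passed. The median difference of all genes lay between -0.03 and -0.02 under each scaling. For 46 companion genes, the 9 genes left out, 38 results lost their call and 11 gained one under an alternative, 766 did neither, and none reversed. Of the 5 genes most like Sftpc, 0 to 3 remained among the nearest 5 on leaving out 1 array.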
